A study of Oryza sativa with 12 samples.

Results

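The pericarp of the developing rice seed was compared with its starchy endosperm, gene by gene, in 6 of the 12 RNA sequencing libraries of the series. The libraries were chosen by the tissue letters in the column headers, Pc for pericarp and Se for endosperm, which gave 3 libraries of each tissue. The table listed 37878 genes of Oryza sativa, and 16347 of them passed the filter on low counts. Both tissues came from untreated plants in the field, and 10 ng of total RNA per sample, isolated with the PicoPure kit, went into NEBNext Ultra libraries for the HiSeq2500. The libraries of a tissue are biological replicates in the submitters' design text, which does not mention separate plants, so p-values measure the spread between these libraries, which may be technical. The sources used here do not give the cultivar, the seed stage or the way the tissues were separated.

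The pericarp is the wall of the fruit and is maternal tissue, which surrounds the products of fertilization. In cereals it brings sucrose in from the mother plant along its vascular bundle, is green while young and later thins out and dies. The starchy endosperm is a product of fertilization and fills with starch and storage protein. The aleurone, the outer layer of the endosperm, lies against the inner side of the maternal layers and stores oil.

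Fewer genes were counted in pericarp than in endosperm libraries. Genes with at least 1 count numbered 5893, 5485 and 4599 in pericarp libraries 1, 3 and 4, and 10048, 6780 and 10490 in endosperm libraries 2, 3 and 4, numbered as in the column headers. The groups did not overlap, with means of 5326 ± 661.6 and 9106 ± 2026 genes (SD, n = 3 libraries each) and a difference of -3780 genes. An exact two-sided permutation test gave p = 0.1, the smallest that 3 libraries against 3 allow. Total counts were 6301388, 4355457 and 2879282 in pericarp and 20027236, 6367350 and 24412371 in endosperm. At the smallest of these totals, 2879282 reads, a mean of 5165 ± 554.4 genes would be counted in pericarp and 8855 ± 2003 in endosperm (SD, n = 3), so the difference was -3690 genes at equal depth.

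Zero counts in the pericarp libraries were common at levels where depth alone predicts a count. Levels below are CPM, read counts put on 1 scale for all libraries by trimmed means (TMM) and not divided by gene length. They are therefore set side by side between libraries. Ranks of genes and sums over genes by these levels are of reads and also carry gene length. Of the 1384 genes counted in all 3 endosperm libraries at a mean of 100 to 1000 CPM, 77.6%, 72.2% and 62.6% had a count in pericarp 1, 3 and 4. At equal levels the depth of these libraries would count 100% of them. The pericarp libraries also missed genes of their own tissue. Among genes counted in both other pericarp libraries at 100 to 1000 CPM, 85.8% were counted in pericarp 1, 88.4% in pericarp 3 and 83.6% in pericarp 4, against 94.1% to 99.9% for the endosperm libraries treated in the same way. At 10 to 100 CPM the shares were 59.8%, 60.7% and 49.9% in pericarp 1, 3 and 4. Endosperm 3 was near these at 59.6%, while endosperm 2 had 87% and endosperm 4 had 90.1%.

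A high count in 1 pericarp library was often met by zeros in the others. At least 100 counts in some pericarp library were found for 8632 genes, and 4334 of these, 50.2%, were at 0 in both of the other pericarp libraries. In endosperm the same held for 2305 of 10724 genes, 21.5%. At 1000 counts or more the share was 13% of 1543 genes in pericarp and 0.141% of 2134 genes in endosperm. Spearman correlations over the tested genes, given as a description, were 0.316 to 0.366 between pericarp libraries, 0.291 to 0.405 between a pericarp and an endosperm library, and 0.587 to 0.726 between endosperm libraries. A 0 is therefore given here as a value of the library, and bounds computed from it cover counting error in the library alone.

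**Figure D1:**
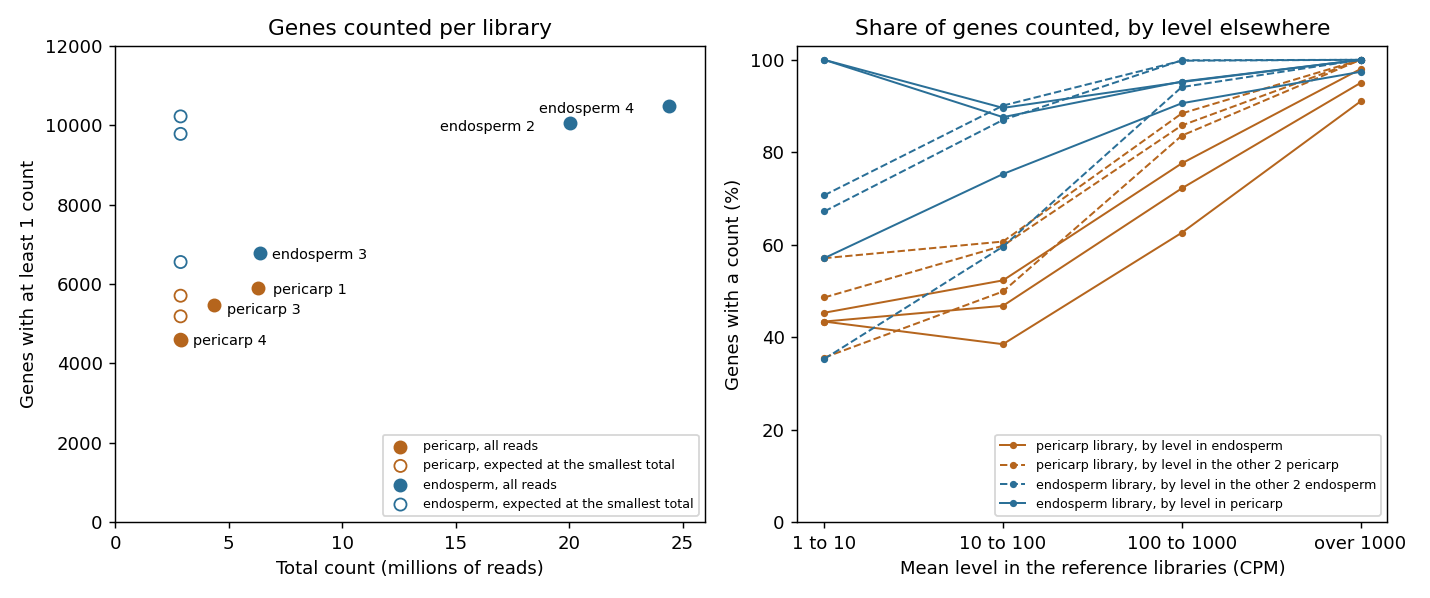
Left, genes with at least 1 count against the total count (reads) of each pericarp and endosperm library, as filled points, with open points for the number expected at the smallest total. Right, percent of genes with a count in each library against their mean level (CPM) in the reference libraries named in the legend, 1 line per library. All pericarp points lie below all endosperm points at equal depth, and the solid pericarp lines rise to 91% to 98% for genes over 1000 CPM in endosperm.

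Across the tested genes, 402 differed between the tissues, 38 higher and 364 lower in pericarp. This is 2.46% of the tested genes called in either direction, 0.232% higher and 2.23% lower, by edgeR's quasi-likelihood test over all 12 libraries with thresholds of 0.05 on the adjusted p and 2 on the fold. Zeros made up most of the lower group. Of its 364 genes, 264 were at 0 in all 3 pericarp libraries, 65 were counted in 1, 7 in 2 and 28 in all 3, while 363 were counted in every endosperm library. The 264 genes had endosperm means of 12.4 to 590.6 CPM with a median of 52.6. Set against the floor of 3 counts over the 3 pericarp libraries, 0.137 CPM, they were at least 90.7-fold to 4324.1-fold lower. In the higher group 37 of 38 genes were counted in all 3 pericarp libraries and 19 were at 0 in all 3 endosperm libraries, with pericarp means of 47.5 to 331.5 CPM.

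The number of calls differed widely between fits, for causes that were not tested. A fit of the 6 pericarp and endosperm libraries alone called 0 of 7039 genes, with 1207 at an unadjusted p below 0.05 and a smallest adjusted p of 0.0872, while DESeq2 on all 12 libraries called 4975 genes and limma voom 1688. A core of 370 genes, 27 higher and 343 lower, was called by edgeR, DESeq2 and limma voom alike, and 95 calls, 8 higher and 87 lower, held whichever single library of the 12 was left out. Most of these genes have zeros: 10 of the 370 and 8 of the 95 were counted in all 6 libraries.

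**Figure D2:**
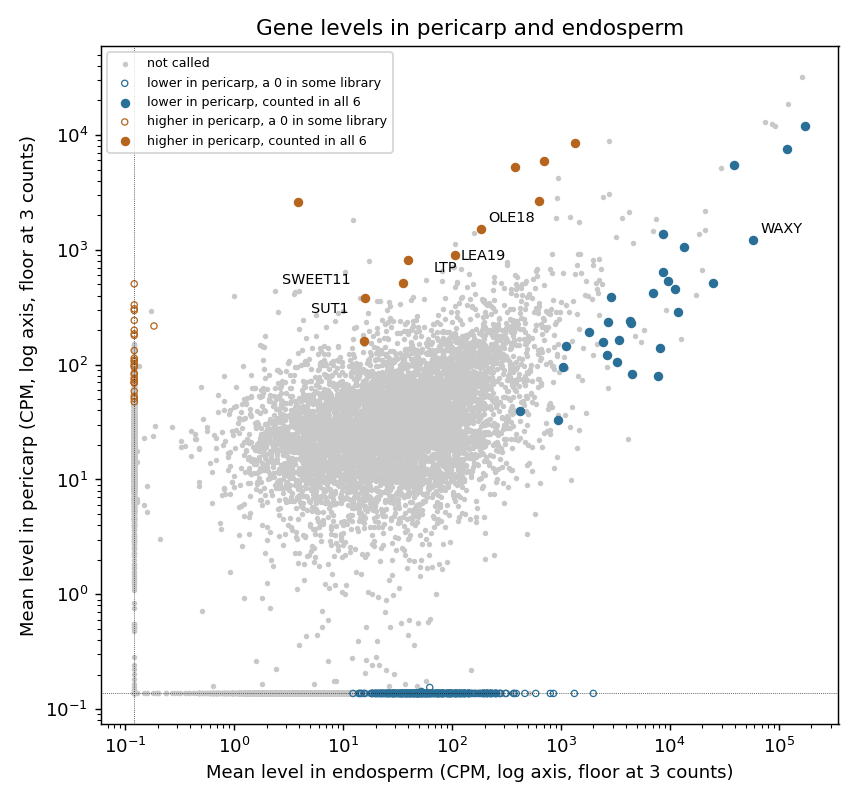
Mean level in pericarp against mean level in endosperm (CPM, log axes, values at or below 3 counts over a tissue drawn at the floor, dotted lines) for each tested gene. Filled coloured points are called genes counted in all 6 libraries, open ones have a 0 in some library, and the 264 genes at 0 in all pericarp libraries form the row along the bottom.

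Genes without zeros gave a smaller comparison. Of the 1320 genes counted in all 6 libraries, 28 (2.12%) were lower in pericarp by 2.66 to 6.63 on the log2 scale, with a median of 4.11, and 11 (0.833%) were higher by 2.10 to 9.38, with a median of 3.38. Of these 39 calls, 10, with 1 higher, were also made by both DESeq2 and limma voom, and 6 lower and 2 higher held whichever single library was left out. The pericarp libraries all lay above the endosperm libraries for 175 of them (13.3%) and all below for 275 (20.8%). These directions depend on the scaling: the median log2 fold change of the 1320 genes was -0.22 with TMM and 1.46 with library totals alone, where 476 lay above and 79 below. Without TMM factors 5 of the 28 lower and 11 of the 11 higher genes were still called. Over all tested genes the counterparts were 371 above (2.27%) and 1963 below (12%), with a median log2 fold change of -0.19, or -0.11 with absent genes at the floor. With library totals alone they were 755 above and 1319 below. All tested genes include 2661 at 0 in all 6 libraries, which could be neither called nor separate.

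Starch synthesis was represented by 1 gene, which was lower in pericarp. WAXY encodes the starch synthase on the granule, the enzyme of amylose. It lies on the plus strand of chromosome 6, from 1931535 to 1935014 in the table's coordinates, for which the sources used here name no genome build. It measured 2320.4, 974.1 and 342.8 CPM in pericarp 1, 3 and 4. In endosperm 2, 3 and 4 it measured 70858.5, 23088.3 and 81667.9 CPM. Every pericarp library lay below every endosperm library, and the log2 fold change was -5.59 with an SE of 1.15 (edgeR adjusted p = 0.0253). It was -6.31 in lane 5, with 2 libraries of each tissue, and -4.93 in lane 6, with 1 of each. The call was lost, at an adjusted p of up to 0.0641, when aleurone 3, pericarp 3, pericarp 4, endosperm 2 or endosperm 4 was left out, and it was not made by limma voom, with library totals alone or among genes counted in at least 2 libraries of each tissue. WAXY was the single member of the starch list in the table, and no symbol of the storage protein list was there. In RNA from whole tissue, fewer cells of a type and less RNA per cell cannot be told apart.

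The other genes that filled the endosperm libraries had no symbol, and like WAXY they were highest in pericarp 1 and mostly lowest in pericarp 4. The 20 genes with the highest endosperm means took 62.8%, 50.4% and 57.5% of all counts in endosperm 2, 3 and 4. They took 31.7%, 18.6% and 8.04% in pericarp 1, 3 and 4, from 15.3% to 42.5% in aleurone and from 0.046% to 0.0658% in embryo libraries. All 20 were counted in all 6 libraries. They were chosen for high endosperm means, so it is no finding that all 20 lay below endosperm in each pericarp library and that 8 were called lower, beside 12% and 2.23% of all tested genes. Their pericarp means were 1.31% to 19.5% of their endosperm means, with a median of 7.25%. Pericarp 1 was the highest pericarp library for 20 of the 20 and pericarp 4 the lowest for 18, with median levels of 14.1%, 4.93% and 1.74% of the endosperm mean in pericarp 1, 3 and 4. The part of endosperm RNA in the pericarp libraries was not tested.

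Several of these genes fell in the same stretch of a chromosome. Of the 20, 7 lay on chromosome 2, and 6 of those fell between 9023603 and 10393472, a stretch of 1370 kb with 71 tested genes that took 14.6% to 21.4% of endosperm counts and 2.73% to 8.46% of pericarp counts. A further 4 fell within 116.2 kb of chromosome 7, between 6347645 and 6463811, where the 6 tested genes took 3.62% to 4.13% of endosperm and 0.11% to 1.17% of pericarp counts. BGIOSGA006780, in the chromosome 2 stretch (9427947 to 9429700, minus strand), measured 11101.5, 8855.7 and 2821 CPM in pericarp and 154101.9, 43946.6 and 158109.8 CPM in endosperm, and it was called lower by edgeR whichever single library was left out. It was not called by limma voom, with or without sample weights, or among genes counted in at least 2 libraries of each tissue. BGIOSGA006533, also on chromosome 2 (16044837 to 16046638, minus strand), measured 28879.7, 4787.2 and 2571.1 CPM in pericarp and 239703.3, 95716.9 and 188515 CPM in endosperm. Its call was lost, at an adjusted p of up to 0.0672, without aleurone 3, embryo 2 or 3, pericarp 3, or endosperm 2 or 4. It was also lost with library totals alone, with limma voom and among genes counted in at least 2 libraries of each tissue. Near-identical copies could share reads among such genes, and the sources used here do not say how shared reads were counted.

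**Figure D3:**
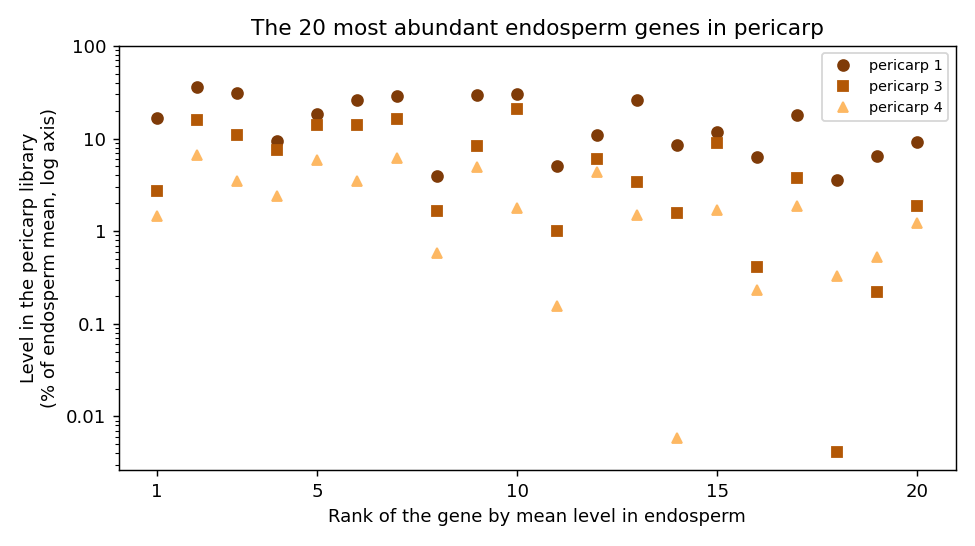
Level of each of the 20 most abundant endosperm genes in the 3 pericarp libraries, as percent of its mean over the 3 endosperm libraries (log axis), ordered by endosperm rank. Pericarp 1 is the highest pericarp library at 20 of 20 ranks and pericarp 4 the lowest at 18.

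The pericarp counterparts overlapped with them. Of the 20 genes with the highest pericarp means, 10 were also among the endosperm's 20. All 20 were counted in all 6 libraries. Of them, 6 lay above endosperm in each pericarp library and 10 lay below, beside 13.3% and 20.8% of all genes so counted. They were chosen for high pericarp means, so it is no finding that 5 were called higher, beside 0.232% of all tested genes. The highest called higher was BGIOSGA010103 (chromosome 3, 29954928 to 29957037, minus strand), at 13904.7, 5121.5 and 6470.9 CPM in pericarp against 2652.3, 844.2 and 563.3 CPM in endosperm. Its means were 31139.8 CPM in aleurone and 3285.8 CPM in embryo. BGIOSGA033746 (chromosome 11, 18687373 to 18688551, minus strand) measured 9169.2, 3637.7 and 4936.2 CPM in pericarp and 1250.9, 419.7 and 430.4 CPM in endosperm. Its means were 19607 CPM in aleurone and 2483.5 CPM in embryo. The tissues did not overlap for either gene, and neither has a symbol. Limma voom called neither, with or without sample weights. The edgeR call for BGIOSGA033746 held whichever single library was left out, and that for BGIOSGA010103 was lost, at an adjusted p of up to 0.116, without aleurone 1 or 3, any embryo library, pericarp 1, or endosperm 3 or 4.

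Oil body genes moved in opposite directions. OLE18, an oleosin that coats the oil bodies of seeds (chromosome 3, 32134440 to 32134958, minus strand), measured 1258.8, 1556 and 1695.9 CPM in pericarp and 385.4, 101.9 and 72.6 CPM in endosperm. The groups did not overlap, and OLE18 was higher in pericarp by 3.01 ± 0.65 in log2 units (SE; edgeR adjusted p = 0.032), the single named gene called higher. PXG, a peroxygenase of oil bodies (chromosome 4, 24257974 to 24259408, minus strand), was at 0 in all pericarp libraries and at 337.4, 39.6 and 224.4 CPM in endosperm. It was at least 1470-fold lower in pericarp (adjusted p = 0.0333, edgeR). The OLE18 call was lost, at an adjusted p of up to 0.0822, when endosperm 3 or 4, aleurone 1 or 3 or 1 of the embryo libraries was left out, and limma voom, or a fit without the 3 embryo libraries or without endosperm 3 and aleurone 2, did not make it. The PXG call was lost, at up to 0.0883, without aleurone 1 or 3, embryo 2 or 3, pericarp 3 or 4, or endosperm 2 or 4. With lane as a covariate both calls were lost, with library totals alone that of PXG was lost, and OLE18 differed by 4.22 in lane 5 and by 1.71 in lane 6.

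OLE18 and LTP were also the aleurone markers used here. LTP encodes a lipid transfer protein, which carries lipids for surface coats. It measured 427.8, 571.3 and 652.4 CPM in pericarp and 84.8, 10.1 and 79.9 CPM in endosperm, groups that did not overlap, and its difference of 3.24 ± 1.04 on the log2 scale was not called (SE; edgeR adjusted p = 0.107). The summed level of both markers was 1686.6 to 2348.3 CPM in pericarp, 112 to 470.2 CPM in endosperm, 2893 to 3701.8 CPM in aleurone and 1432.8 to 2402.2 CPM in embryo. None of the 4 embryo markers OSH15, OSH71, WOX4 and CYCB2-1 was counted in endosperm, pericarp 1 or pericarp 4, and OSH15 alone was counted in pericarp 3, at 54.8 CPM, against a sum of 145.2 to 204.7 CPM in embryo. The part of aleurone RNA in the pericarp values was not tested.

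Of the 5 lipid transfer genes tested, 3 lay above endosperm in each pericarp library and 0 were called, beside 2.27% and 2.46% of all tested genes. LTP2-A_1 was at 21.7, 19.6 and 63.4 CPM and LTP2-A_2 at 20.7, 15.6 and 55.9 CPM in pericarp, and both were at 0 in all endosperm libraries. Their names mark them as copies, on chromosomes 11 and 12, and their reads may be shared. Against the endosperm floor of 0.122 CPM they were at least 286-fold and 252-fold higher, at adjusted p-values of 0.12 and 0.125 (edgeR). The median log2 fold change of the 5 genes was 11.4, or 7.98 with absent genes at the floor, beside -0.19 and -0.11 over all tested genes.

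Late embryogenesis and dehydrin genes, which protect drying cells, gave 0 calls among 3 members tested, beside 2.46% of all tested genes. LEA19 measured 494.1, 642.7 and 987 CPM in pericarp and 142.1, 154.3 and 11.8 CPM in endosperm, without overlap, and its difference of 2.79 ± 1.00 on the log2 scale was not called (SE; edgeR adjusted p = 0.133). The LEA19 means were 1924.7 CPM in aleurone and 1295.4 CPM in embryo. RAB16C was at 0, 36.2 and 0.499 CPM in pericarp and 26.3, 13.7 and 16.5 CPM in endosperm, so its groups overlapped, and RAB16D was at 0 in all 6 libraries.

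Sugar carriers that load the grain gave 2 genes with every pericarp library above endosperm, and no call. SUT1, a sucrose transporter that takes sucrose up into cells, measured 190.4, 214.2 and 332.6 CPM in pericarp and 0, 1.93 and 11.1 CPM in endosperm. SWEET11, a sugar efflux carrier, measured 713.3, 366.8 and 234.6 CPM in pericarp and 0, 0.193 and 6.92 CPM in endosperm. Neither pair of groups overlapped. The log2 fold changes were 5.81 ± 1.69 for SUT1 and 7.51 ± 1.92 for SWEET11 (SE), and the adjusted p-values of 0.0927 and 0.0679 did not pass (edgeR). Aleurone means were 668.5 CPM for SUT1 and 352.7 CPM for SWEET11, and both were at 0 in embryo.

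SWEET14, a related efflux carrier, was not called and its groups overlapped. It was at 59.9, 33.2 and 0 CPM in pericarp and at 272.9, 438.1 and 15.9 CPM in endosperm, where endosperm 4 fell inside the pericarp range. The table held 16 members of the sugar list. Of these, 7 were tested, 0 were called and 2 lay above endosperm in each pericarp library, with a median log2 fold change of 5.81. Over all tested genes, 2661 of them at 0 in all 6 libraries, 2.46% were called, 2.27% lay above, and the median was -0.19. CIN2, a cell wall invertase that splits sucrose outside the cell, and SWEET4 are given here after their values were seen: they had pericarp means of 95.8 and 56.1 CPM, from 2 and 1 libraries with a count, and were at 0 in all endosperm libraries. The other tested members, SUT4 and SWEET15, had lower means in pericarp, with overlap. SUT4 averaged 0.0436 CPM in pericarp and 9.44 CPM in endosperm, and SWEET15 averaged 15.6 and 30.3 CPM.

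**Figure D4:**
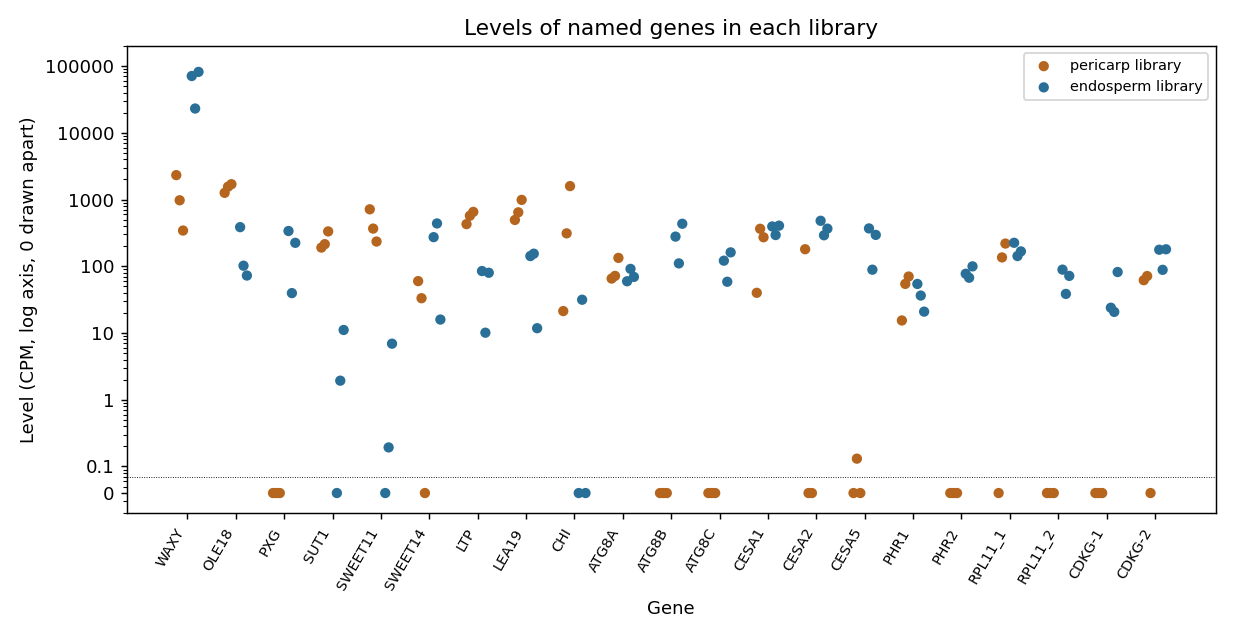
Level (CPM, log axis, 0 drawn apart at the bottom) of named genes in each pericarp library (left cluster of each gene, libraries 1, 3 and 4) and endosperm library (right cluster, libraries 2, 3 and 4). OLE18 and LTP sit above and WAXY below endosperm in each pericarp library, and ATG8B, ATG8C, PXG, PHR2, RPL11_2 and CDKG-1 are at 0 in all 3 pericarp libraries.

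Autophagy genes split within 1 family. ATG8 proteins are joined to a membrane lipid and build the vesicles that carry cell contents to the vacuole. ATG8B was at 0 in all pericarp libraries and at 278.1, 110.4 and 433.2 CPM in endosperm, at least 2010-fold lower in pericarp (adjusted p = 0.00919, edgeR). ATG8C was at 0 in pericarp and at 121.2, 58.6 and 161.4 CPM in endosperm, at least 833-fold lower by edgeR (adjusted p = 0.00965). Both calls held whichever single library of the 12 was left out. ATG8A was counted in all 6 libraries, at 65.4, 71.7 and 133.4 CPM in pericarp and 59.6, 91.3 and 69.2 CPM in endosperm, groups that overlapped. ATG8 copies resemble each other, and reads they share could be split in the counting.

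Other named genes called lower had zeros in all or nearly all pericarp libraries. PHR2, a transcription factor of the phosphate starvation response, was at 0 in pericarp and at 77.2, 67.3 and 99.6 CPM in endosperm, at least 596-fold lower by edgeR (adjusted p = 0.0157). The call was lost without endosperm 4, at an adjusted p of 0.0522, and also with library totals alone, with a replicate block and without the 3 embryo libraries. Its relative PHR1 was counted in all 6 libraries, at 15.4, 54.4 and 70.2 CPM in pericarp and 54.3, 36.4 and 20.9 CPM in endosperm, and its groups overlapped. Of 8 phosphate genes tested 1 was called, beside 2.46% of all tested genes, and 4 were at 0 in all pericarp libraries, as were 7040 of the 16347. SPX3, a sensor of the phosphate response, had 35.9, 0 and 79.2 CPM in pericarp and 0, 0 and 15.9 CPM in endosperm.

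Copies of 1 ribosomal protein gene differed in pattern. RPL11_2, a copy of a large subunit protein gene, was at 0 in pericarp and at 89, 38.5 and 71.7 CPM in endosperm, at least 486-fold lower by edgeR (adjusted p = 0.0137), a call that held whichever single library was left out and was lost without the 3 embryo libraries. RPL11_1 was at 0, 135.6 and 218.8 CPM in pericarp and at 224.7, 142.3 and 167 CPM in endosperm. Reads may be shared between these copies. RPL5A and RPS16B_1 were likewise at 0 in pericarp 1, and at 188.7 and 130.8 CPM, and 80.8 and 256.6 CPM, in pericarp 3 and 4. RPL10A and RPS16B_2 were counted in all 3 pericarp libraries. Their means were 111.7 and 92.8 CPM in pericarp and 79.0 and 95.6 CPM in endosperm, with overlap. All 6 members of this list were tested, 1 was called, beside 2.46% of all tested genes, and the median log2 fold change was -0.32.

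Cellulose synthase genes, which build the main fibre of the cell wall, gave 1 call. CESA5 had 1 count in pericarp 3, a level of 0.131 CPM, and 0 in the other pericarp libraries, against 368.8, 88.8 and 295 CPM in endosperm (called lower, adjusted p = 0.0275, edgeR). CESA2 was at 180, 0 and 0 CPM in pericarp and 480, 291.1 and 366.1 CPM in endosperm, below in each library and not called (adjusted p = 0.459, edgeR). CESA1 was at 40, 364.4 and 271.9 CPM in pericarp and 394.7, 293.6 and 405.6 CPM in endosperm, where pericarp 3 lay inside the endosperm range. Of 12 cell wall genes listed, 7 were tested and 1 was called, beside 2.46% of all tested genes, with a median log2 fold change of -2.66. The CESA5 call was lost, at an adjusted p of up to 0.0674, without aleurone 1 or 3, any embryo library, pericarp 4, or endosperm 2 or 4, with lane as a covariate, without all 3 embryo libraries and with library totals alone.

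Cell cycle genes gave 1 call among 16 tested, beside 2.46% of all tested genes, with a median log2 fold change of 0. CDKG-1, a cyclin-dependent kinase, was at 0 in pericarp and at 23.9, 20.7 and 81.9 CPM in endosperm, at least 309-fold lower by edgeR (adjusted p = 0.0237). The call was lost, at an adjusted p of up to 0.0682, without aleurone 1 or 3, embryo 2 or 4, or endosperm 2 or 4, and in fits with lane, a replicate block, library totals alone or no embryo libraries. CDKG-2 was at 61.8, 71.3 and 0 CPM in pericarp and 176.9, 88.4 and 179.6 CPM in endosperm, without overlap and without a call (adjusted p = 0.555, edgeR). CDKF-1 was at 0, 0.131 and 74.9 CPM in pericarp and 31.8, 30.6 and 81.8 CPM in endosperm, and FEN1b, a nuclease of DNA replication, at 62.8, 0.131 and 42.1 CPM and 81.5, 39.1 and 31.6 CPM, with overlap in both. RBR1, the plant retinoblastoma protein, given after its values were seen, averaged 36.8 CPM in pericarp from 2 libraries and was at 0 in endosperm.

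Fermentation genes, which let cells make energy with little oxygen, lay above endosperm in each pericarp library for both of the 2 members tested. Of these 2 genes 0 were called, beside 2.46% of all tested genes. Both were counted in all 6 libraries, and 13.3% of such genes lay above. PDC2, a pyruvate decarboxylase, measured 268.9, 680.1 and 578.6 CPM in pericarp and 219.1, 20.9 and 97.2 CPM in endosperm. ADH1, an alcohol dehydrogenase, measured 111, 66.7 and 209.8 CPM in pericarp and 63, 34.2 and 58.3 CPM in endosperm, so that pericarp 3 lay just above endosperm 2. The log2 fold changes were 2.18 ± 0.78 and 1.32 ± 0.76 (SE, adjusted p = 0.134 and 0.264, edgeR). Aleurone means were 721.5 and 368.5 CPM, and embryo means were 805.4 and 325.7 CPM.

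Hormone genes gave 0 calls, beside 2.46% of all tested genes. Of 44 auxin, jasmonate, cytokinin, brassinosteroid and ethylene genes, 25 were tested. Of these, 15 were at 0 in all pericarp libraries, as were 7040 of the 16347 tested genes. ETR4, an ethylene receptor, was at 134.6, 72.2 and 39.3 CPM in pericarp and 23.8, 0 and 0 CPM in endosperm, above in each library (adjusted p = 0.345, edgeR), while ERS1, also a receptor, was at 155.5, 142.3 and 0 CPM in pericarp and 330.9, 270.6 and 437.1 CPM in endosperm, below in each (adjusted p = 0.538, edgeR). The difference between the receptors was not tested. ARF16, an auxin response factor, was at 103.9, 0 and 0 CPM in pericarp and 520.3, 28.2 and 310.8 CPM in endosperm. DAO, an enzyme that oxidizes auxin, was at 187.3, 35.3 and 41.3 CPM and at 55.4, 28.4 and 59.1 CPM. The groups of both overlapped.

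Abscisic acid and gibberellin genes gave 0 calls among 4 tested, beside 2.46% of all tested genes. SLR1, the DELLA repressor of gibberellin responses, was at 111, 65.3 and 0 CPM in pericarp and 9.29, 0 and 43.5 CPM in endosperm. SAPK3, a kinase of abscisic acid signalling, was at 0, 66.8 and 0 CPM in pericarp and 54.1, 67.1 and 10.8 CPM in endosperm. GAM1, a MYB factor of gibberellin responses, was at 69.9, 0 and 0 CPM in pericarp and at 0 in endosperm.

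Pigment and chloroplast genes, 2 and 8 of them tested, varied widely among the pericarp libraries and gave 0 calls, beside 2.46% of all tested genes. CHI, the chalcone isomerase of flavonoid synthesis, was at 21.3, 311.1 and 1587.4 CPM in pericarp and 0, 31.5 and 0 CPM in endosperm, so that pericarp 1 fell below endosperm 3. CHS1, the chalcone synthase before it, was at 0, 42.4 and 0 CPM in pericarp and 0, 0.193 and 0 CPM in endosperm. The chloroplast list, 8 tested of 10 in the table and 0 called, summed to 0, 141.1 and 136.9 CPM in pericarp and to 32.8, 98.1 and 57.3 CPM in endosperm. The subunits of magnesium chelatase, which makes chlorophyll, differed in pattern. CHLH was at 0, 70.5 and 71.2 CPM in pericarp and at 0 in endosperm, CHLD was at 0 in pericarp and at 0, 42.7 and 34.8 CPM in endosperm, and CHLI was at 0, 70.6 and 0 CPM in pericarp and 32.8, 37.5 and 9.35 CPM in endosperm. The list therefore gave no separation of a green tissue from the endosperm, and the table held no marker fixed for the pericarp itself.

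Histone H2B genes, which package DNA, gave 0 calls among 10, beside 2.46% of all tested genes. H2B.6 was at 0, 181 and 245.3 CPM in pericarp and 0.362, 0 and 27 CPM in endosperm. H2B.2 was at 0, 217.3 and 0 CPM in pericarp and 6.99, 0 and 8.27 CPM in endosperm. H2B.8 was at 73.9, 0 and 0 CPM in pericarp and 62.1, 79.3 and 81 CPM in endosperm. Homeobox genes, 16 tested of 29, also gave 0 calls, beside the same 2.46%. HOX16 was at 246.6, 0 and 23.3 CPM in pericarp and at 14.4, 0 and 3.51 CPM in endosperm. HOX33 was at 0, 0.131 and 90.7 CPM in pericarp and 43.7, 0 and 33.6 CPM in endosperm. WOX5 was at 58.7, 0.131 and 47.9 CPM in pericarp and 59.6, 99 and 74.4 CPM in endosperm, and its fitted direction turned with library totals alone, to a log2 fold change of 0.37 from -1.13.

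Further named genes with separate groups were not called. PUT1, a polyamine transporter, was at 244.5, 68.4 and 231.3 CPM in pericarp and 31.1, 0.193 and 14.4 CPM in endosperm (adjusted p = 0.137, edgeR). The gene with the symbol infA, the name of a plastid translation factor, was at 123.6, 105.9 and 260.7 CPM in pericarp and 3.14, 42.4 and 0 CPM in endosperm (adjusted p = 0.199, edgeR). ASA1, an anthranilate synthase at the start of tryptophan synthesis, was at 30.9, 16.1 and 0 CPM in pericarp and 1221.5, 756.4 and 816.7 CPM in endosperm, a log2 difference of -5.89 ± 1.66 (SE; edgeR adjusted p = 0.0774). KIN17 was at 0 in pericarp and at 23.3, 52.8 and 66.6 CPM in endosperm (adjusted p = 0.0679, edgeR).

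The other named genes, chosen for their abundance, had overlapping groups with TMM scaling. GAPC, the cytosolic glyceraldehyde phosphate dehydrogenase of glycolysis, was at 635.2, 492.3 and 467.7 CPM in pericarp and 400.1, 647.3 and 402.6 CPM in endosperm. HSP81-1, a heat shock chaperone, was at 469.2, 1300.6 and 969.2 CPM and at 582.2, 1015.6 and 902.8 CPM. With library totals alone the GAPC log2 fold change was 1.63 in place of 0.14, the HSP81-1 log2 fold change was 1.75 in place of 0.13, and neither was called. TRXH, a thioredoxin, was at 140.1, 151.4 and 92.3 CPM and at 166.7, 150.9 and 144.6 CPM. Metal-binding proteins varied within each tissue, with MT2C at 257.1, 161.5 and 1146.5 CPM in pericarp and 545.2, 122.6 and 64.3 CPM in endosperm, and MT3A at 162.7, 74.4 and 73.7 CPM and at 471, 22.2 and 16.1 CPM. OSK3, a kinase of sugar and energy signalling, was at 588.4, 421.2 and 0 CPM in pericarp and 411.5, 521.6 and 497.8 CPM in endosperm.

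Among all 286 tested genes with a symbol, 8 were called lower and 1 higher, 3.15% in all, beside the 2.46% of all tested genes. None of these 9 calls was made with the 6 libraries alone or with lane 5 alone. The pericarp libraries lay above endosperm for 15 of the 286 and below for 30, and 40 were counted in all 6 libraries. No pericarp library had a count for 92, and no endosperm library for 68.

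**Figure D5:**
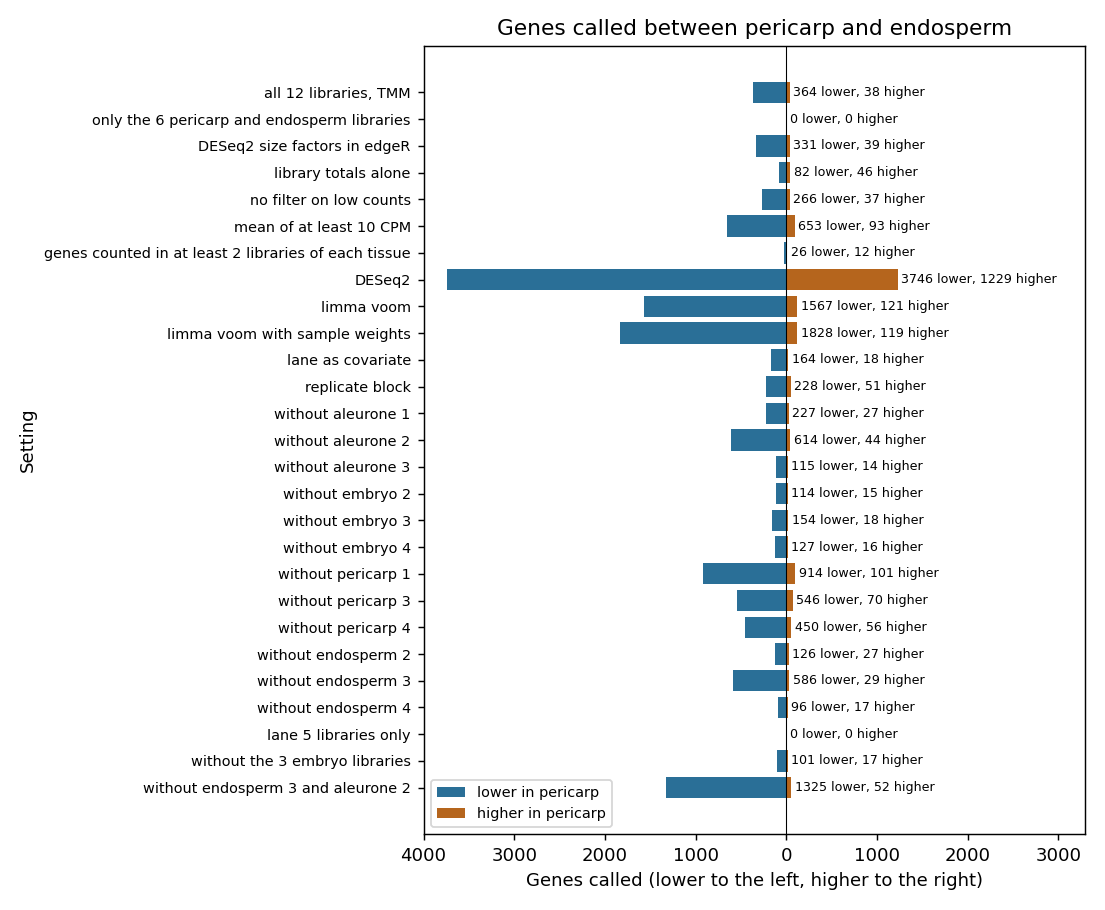
Genes called between pericarp and endosperm under each setting of the fit, lower in pericarp to the left of 0 and higher to the right, with the numbers printed. The fit of the 6 libraries alone and that of lane 5 alone called 0 genes, and lower calls outnumbered higher ones in every setting that made calls.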

How the data were processed

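RNA was sequenced from pericarp, aleurone, embryo and endosperm, 3 libraries each. The authors deposited whole-number total counts per gene, not normalized, per the file headers. The sources used here name no aligner, counter, genome build or strand setting, so overlapping and antisense genes cannot be told apart. The 36 other per-library columns were not used. Columns carry tissue letters, and Se was given to endosperm as the last name free. Library numbers are those of the headers and differ from the sample titles. Lane 6, per the file headers, held aleurone 1 and 2, embryo 2, pericarp 1 and endosperm 2, and lane 5 the others.

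Counts were tested with edgeR 4.0.16 in R 4.3.3 (filterByExpr with a minimum count of 10, TMM, glmQLFit and glmQLFTest, tissue as the only term, all 12 libraries). Calls needed a fold of 2 or more and a p below 0.05 after Benjamini-Hochberg adjustment. The common dispersion was 3.49. DESeq2 1.42.0 and limma 3.58.1 were alternatives. A tissue at 0 was set to a floor of 3 counts over its 3 libraries, 0.137 CPM in pericarp and 0.122 in endosperm. Floors cover counting error only, since reads carry no molecular identifiers.  Scripts were tested on simulated data.

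The tissues compared, the 20 gene lists (symbol patterns, with 11 members removed as wrong matches) and the tests were chosen with earlier results of these data known. Named genes have a symbol and are those called, the 3 most abundant tested members of each list, the 8 largest changes per direction without overlap at 20 CPM or more, and the 5 most abundant per tissue, with at most 2 identifiers without a symbol per direction. The table described products for 24 genes. No sequence is shown.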

Additional observations from a re-analysis of the deposited data

How the results depend on the processing

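The count of 402 calls moved to 0 with the 6 libraries alone, 128 with library totals (46 higher and 82 lower, so 35.9% higher against 9.45%), 746 with a mean of at least 10 CPM, 38 of 3535 among genes counted in at least 2 libraries of each tissue, 4975 with DESeq2, 1688 with limma voom, 1947 with voom and sample weights, and 182 with lane as a covariate. Added after the data were seen, lane 5 alone gave 0 calls (2642 at an unadjusted p below 0.05), the fit without embryo 118, and that without endosperm 3 and aleurone 2, which lack many genes of their tissue, 1377. Leaving out 1 library gave 113 to 1015 calls: for aleurone 1, 2 and 3 the counts were 254, 658 and 129, for embryo 2, 3 and 4 they were 129, 172 and 143, for pericarp 1 and 3 they were 1015 and 616, and for endosperm 2, 3 and 4 they were 153, 615 and 113. The causes were not tested. Genes with separate groups numbered 826 among the 3535. The difference in genes counted stayed negative, from -4943 to -3088 without 1 library. WOX5, whose groups did not overlap, turned to a log2 fold change of 0.37 with library totals. Some named genes with overlapping groups also turned from a negative to a positive log2 fold change there, among them CESA1, CDKF-1, FEN1b and CHLI. Header numbers shared by the tissues gave correlations of 0.00626 and -0.0179. With so many zeros in the pericarp libraries, these values cannot show whether the numbers pair samples. A replicate block gave 279 calls, 155 of them shared with the main fit. No filter gave 303 calls, DESeq2 size factors 370, and no minimum fold 402.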

Other observations

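Of 881 genes counted in all 3 endosperm libraries at 10 CPM or more and at 0 in all pericarp libraries, 71.2% were counted in all 3 embryo and 41.9% in all 3 aleurone libraries, and their median endosperm level was 34.1 CPM. For the 1298 genes of the same kind with a count in every pericarp library the shares were 96.4% and 93.4%, at a median of 111 CPM. Over all 16347 tested genes the shares were 78.2% and 38.6%. Among called genes, 92.1% of the 38 higher and 93.1% of the 364 lower in pericarp were counted in all 3 aleurone libraries. The calls came from a fit that also used the aleurone and embryo libraries, so the shares among called genes may depend on that choice. A link between the called genes and the aleurone was not tested. The median span from gene start to end was 1098 bases for genes called higher, 3851 for those called lower and 2954 for all tested genes.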
